A study of Mus musculus with 6 samples.

Results

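The genes described here encode the machinery that carries a cell into and through mitosis: the kinases and cyclins of mitotic entry, mitotic kinesins, spindle proteins, cytokinesis factors, condensins, partners of the anaphase-promoting complex (APC/C) and regulators that switch these genes on. They were chosen by a fixed list of 50 gene symbols without kinetochore genes, and all 50 were present among the 17438 genes of the deposited count table. Their RNA was measured by bulk sequencing in group 2 innate lymphoid cells (ILC2s), which lack antigen receptors and make type 2 cytokines such as IL-5 and IL-13 when epithelial alarmins reach them. The labels describe a sort of ILC2s out of mouse lung, IL-33 treatment and a culture, with 10 pg of RNA per sample amplified to cDNA. The wild-type group (WT, libraries WT1, WT2 and WT3) came from the strain written CB57BL/6. The Cd48 KO group (KO1, KO2 and KO3) carried the allele B6.129S4-Cd48tm1Rsr/EpaulJ, with the same strain label and the same treatment. Its name gives a donor strain other than B6 for the segment around Cd48. The series text speaks of duplicates, whereas 3 samples per genotype were given. The labels give no age, no length of culture and no link of samples to separate animals, so p-values measure only how these samples vary, part of which may be technical.

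Entry into mitosis is driven by Cdk1 bound to cyclin A2 or a B-type cyclin, with Cdc25 phosphatases removing the inhibitory phosphates and Polo-like and Aurora kinases amplifying the switch. Kinesins and microtubule-associated proteins then build and elongate the spindle, condensins and topoisomerase II compact and untangle the chromosomes, and the APC/C marks securin and cyclin B for destruction so that separase can part the sister chromatids. Most of these transcripts peak in G2 and M phase, whereas Mybl2, an E2F target, is induced earlier, around the start of S phase. Their promoters are switched on by B-Myb and FoxM1 together with the MuvB complex, whose subunit Lin54 binds the CHR element (cell cycle genes homology region), while NF-Y binds CCAAT boxes nearby. In bulk RNA of a proliferating lymphocyte culture, more cells in G2 and M phase and more transcript per dividing cell cannot be told apart.

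The stretches before the start sites are shown as background on this class of genes, and their part in the differences between the libraries was not tested. RefSeq promoter windows (GRCm38.p6, 250 bases before to 50 after the start, 300 in all) were found for 42 of the 50 genes, as 45 windows. Both strands were searched for the CHR core, spelled TTTGAA or TTCGAA, and for CCAAT. The 2 kinds of match overlapped in 0 of the 45 windows. A CHR core lay in 37 windows (82.2%), against 19.2% of all 32851 promoter windows and 14.5% of those of genes in the count table. CCAAT lay in 32 (71.1%), against 37.4% of all windows, and at least 2 CCAAT boxes in 20 (44.4%), against 11.7%. Both kinds lay in 31 windows (68.9%), against 7.5% of all. The 8 genes below were chosen after their matches were seen, 6 with both kinds of match before the start, 1 with CCAAT alone and 1 with neither. The bases end just before the start site and run 5′ to 3′ along the gene, and capitals mark the CHR cores (6 bases) and CCAAT boxes (5 bases) on either strand.
Cdk1 (chr10:69352913-69353042, minus strand): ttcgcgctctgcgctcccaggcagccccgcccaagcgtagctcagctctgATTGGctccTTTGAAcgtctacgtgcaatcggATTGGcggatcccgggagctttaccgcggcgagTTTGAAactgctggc
Top2a (chr11:99024190-99024389, minus strand): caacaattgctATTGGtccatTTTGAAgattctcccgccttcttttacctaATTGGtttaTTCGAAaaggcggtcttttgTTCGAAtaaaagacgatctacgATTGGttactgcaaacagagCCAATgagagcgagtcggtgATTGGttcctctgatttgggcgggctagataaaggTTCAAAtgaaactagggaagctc
Mki67 (chr7:135716380-135716579, minus strand): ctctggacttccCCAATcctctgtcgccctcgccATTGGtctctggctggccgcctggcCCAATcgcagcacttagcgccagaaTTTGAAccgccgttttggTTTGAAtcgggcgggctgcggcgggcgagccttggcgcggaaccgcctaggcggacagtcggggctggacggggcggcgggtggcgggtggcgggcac
Ube2c (chr2:164769799-164769928, plus strand): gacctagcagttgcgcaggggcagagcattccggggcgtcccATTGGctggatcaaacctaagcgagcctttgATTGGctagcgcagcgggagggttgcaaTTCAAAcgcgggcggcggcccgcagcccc
Espl1 (chr15:102296163-102296292, plus strand): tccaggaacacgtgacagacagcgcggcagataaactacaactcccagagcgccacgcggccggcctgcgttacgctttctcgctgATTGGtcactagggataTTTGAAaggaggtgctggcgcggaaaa
Kif11 (chr19:37376252-37376381, plus strand): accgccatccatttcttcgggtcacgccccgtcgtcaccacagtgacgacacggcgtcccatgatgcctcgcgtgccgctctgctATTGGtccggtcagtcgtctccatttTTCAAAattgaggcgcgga
Ccnb1 (chr13:100786487-100786616, minus strand): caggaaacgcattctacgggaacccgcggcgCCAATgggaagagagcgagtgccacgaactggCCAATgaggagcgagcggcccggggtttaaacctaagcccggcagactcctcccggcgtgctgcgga
Pttg1 (chr11:43425982-43426111, minus strand): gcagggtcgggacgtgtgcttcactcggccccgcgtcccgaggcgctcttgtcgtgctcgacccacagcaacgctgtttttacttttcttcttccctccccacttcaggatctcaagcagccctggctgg

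**Figure D1:**
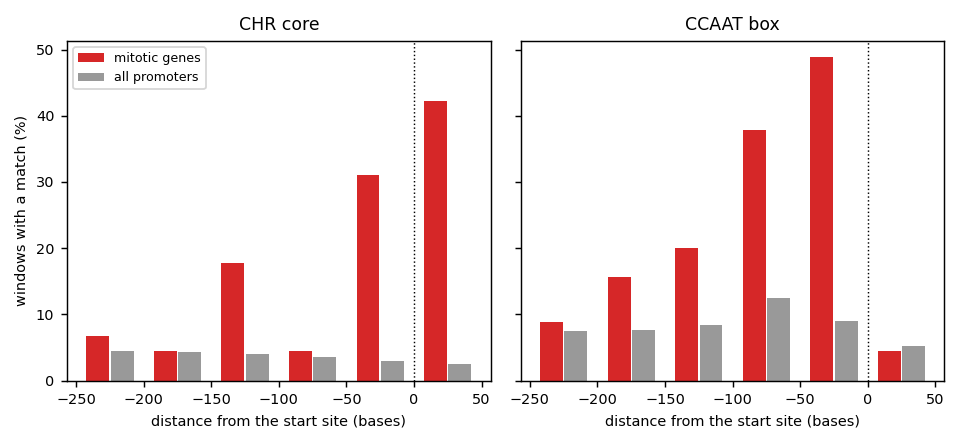
Share of promoter windows (%, y axis) with a CHR core (left) or a CCAAT box (right) whose first base lies in each bin of 50 bases along the distance from the start site (x axis, 0 is the start), for the 45 windows of the mitotic genes (red) and all 32851 windows (grey). CCAAT was densest in the 50 bases before the start (48.9% against 9.0%) and the CHR core in the 50 bases from the start on (42.2% against 2.5%).

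These matches describe letters and do not show that a factor was bound. No window was found for Ccna2, Cdc25c, Kif20a, Tpx2, Smc4, Cdca2, Foxm1 and Lin9. A window held neither kind of match for Plk4, Kif18a, Nusap1, Tacc3, Ncaph, Pttg1 and Mybl2.

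Library totals ran from 14928623 to 27450400 deposited counts, and counts of the mitotic genes in single libraries from 55 to 9932. Cd48 itself, which checks the labels, was at 58.2, 46.6 and 41.6 CPM in WT1 to WT3 and 4.52, 5.59 and 4.40 CPM in KO1 to KO3, where CPM are counts scaled to a common library size with TMM factors. All 14 fixed ILC2 markers were listed, with summed levels of 12142 to 16175 CPM in WT and 13840.3 to 14684 CPM in KO. Of 8 T cell markers 4 were listed, with summed levels of 27.8 to 44.3 CPM in WT and 14.4 to 16.8 CPM in KO, nearly all of it Cd3g, while Cd3e and Cd3d were at or below 2.67 CPM in every library. Macrophage and dendritic cell markers (7 of 8 listed) summed to 52.8 to 227 CPM in WT and 14.5 to 120.1 CPM in KO. Most of it was Chil3, at 45.5, 108 and 214 CPM in WT and 67.8, 113 and 8.58 CPM in KO. B cell markers (2 of 5 listed) summed to 14.1 to 20.0 CPM in WT and 12.2 to 17.2 CPM in KO. Lung epithelial, endothelial and stromal markers (5 of 8) summed to 54.5 to 107 and 51.5 to 63.2 CPM, mast cell and granulocyte markers (2 of 7) to at most 1.47 CPM, and none of 5 NK cell and ILC1 markers was listed. Single markers differed too. Without WT1, Cd3g (-0.92 on the log2 scale, adjusted p 0.0069, edgeR, BH) and the epithelial gene Epcam (-0.83, adjusted p 0.0347) fell in KO, and both were also called by DESeq2 with all 6 libraries (adjusted p 0.0029 and 0.0223). The ILC2 markers Il2ra (0.31, adjusted p 0.0200) and Il5 (0.29, adjusted p 0.0332) rose in the same edgeR fit, and Il5 was at -0.02 with all 6 libraries. The part of these markers in the results was not tested. WT1 stood apart from the other libraries. Counts of calls are therefore given with all 6 libraries and without WT1, and a fold change without WT1 is followed by that of all 6 libraries where they differ by over 1.5 times.

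The mitotic genes were higher in the KO libraries almost throughout. With all 6 libraries 49 of the 50 had a positive log2 fold change (KO over WT), against 49.5% of 13317 tested genes. Their median was 0.40, a 1.32-fold difference, while the median of all tested genes was -0.004. None passed edgeR's quasi-likelihood test at an adjusted p under 0.05, adjusted over all genes after Benjamini and Hochberg (BH) (lowest adjusted p 0.555), where 0.015% of genes were called higher and 0.015% lower. An unadjusted p under 0.05 was reached by 19 of the 50 and by 6.89% of all genes. On the same libraries DESeq2 called 5 of the 50 higher and 0 lower (background 0.421% higher and 0.390% lower), namely Kif23, Hmmr, Prc1, Anln and Ect2. Limma-voom with sample quality weights called 8 higher and 0 lower (background 0.421% and 0.330%), namely Ccnb1, Plk4, Kif23, Aspm, Hmmr, Prc1, Ect2 and Ube2c. These genes belong to 1 process and were measured in the same libraries, so they are not 50 independent observations.

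Without WT1, 20 of the 50 rose in KO and 0 fell (edgeR, BH), against a background of 1.17% higher and 0.652% lower among 13643 genes. All 50 fold changes were positive, from 0.02 to 0.82 on the log2 scale, with a median of 0.37 (1.29-fold), against 50.2% positive and a median of 0.0 over all tested genes. The count of calls depended on each remaining library. It was 3 without WT2, 10 without WT3, 4 without KO2, 1 without KO3 and 30 without KO1, while the median stayed between 0.30 and 0.41. DESeq2 called 30 higher and 0 lower without WT1 (background 1.90% and 1.12%).

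Library by library, the separation was plain for most genes. All 3 KO libraries lay above all 3 WT libraries for 36 of the 50 genes, against 10.2% of all tested genes, and above WT2 and WT3 for 46, against 15.8%. The 4 exceptions were Kif14, Kifc1, Ckap2 and Pttg1. Summed over the 50 genes, the level was 4077 CPM in WT1, 4289.7 in WT2 and 4531 in WT3, and 5387 in KO1, 5782 in KO2 and 5831 in KO3. The KO libraries were not alike either: KO1 was the lowest of the 3 for 35 genes and KO3 the highest for 26. Among the other 2 WT libraries WT2 was below WT3 for 35 genes.

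**Figure D2:**
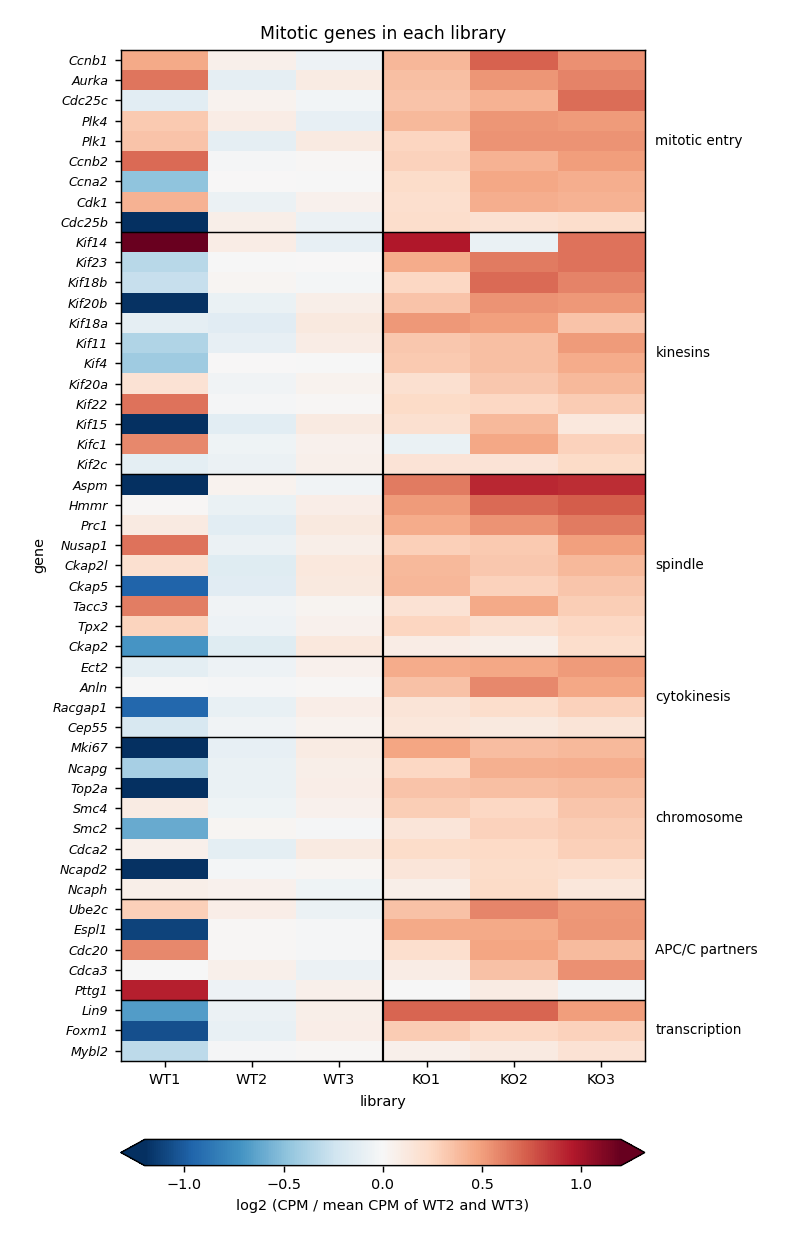
Level of each of the 50 genes (rows, by role) in each library (columns), as log2 of its CPM over the mean CPM of WT2 and WT3; red is higher, blue lower, and the colour scale ends at its arrow tips. The KO columns are red for nearly every gene, whereas WT1 is blue for some genes and red for others.

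Among the kinases, cyclins and phosphatases grouped under mitotic entry, all 9 fold changes were positive in both fits, and 5 rose without WT1 (Ccnb1, Aurka, Plk4, Ccnb2 and Ccna2). Plk4 was placed in this group although its role is in centriole duplication. Ccnb1 encodes cyclin B1, the partner that activates Cdk1 at the G2/M boundary. This gene had the highest level per length of the 50, 112 CPM in KO per kilobase of the longest annotated transcript. It was at 259.8, 198 and 182 CPM in WT1 to WT3 and 249.6, 309.7 and 278 CPM in KO1 to KO3. KO lay above WT2 and WT3, while WT1 fell among the KO libraries. Its log2 fold change was 0.56 (SE 0.09) without WT1, with an adjusted p of 0.0111 (edgeR, BH), and 0.39 (SE 0.17) with all libraries. Aurka, the Aurora kinase of the spindle poles, was at 118, 70.0 and 80.8 CPM in WT and 97.0, 109 and 114 CPM in KO. WT1 was the highest of the 6 here, and the log2 fold change was 0.50 (SE 0.10; adjusted p 0.0227, edgeR, BH) without it and 0.26 (SE 0.21) with it. Cdc25c, a phosphatase that activates Cdk1, was scarcer, at 14.7, 16.5 and 15.6 CPM in WT and 20.3, 21.4 and 25.5 CPM in KO. The groups did not overlap, and its log2 fold changes of 0.52 and 0.49 with and without WT1 did not pass the test (adjusted p 0.690 and 0.134, edgeR, BH). Plk4, the kinase that starts centriole duplication, was at 90.6, 77.5 and 68.2 CPM in WT and 95.6, 105 and 104 CPM in KO, again without overlap. Cyclin A2 (Ccna2) and cyclin B2 (Ccnb2) had log2 fold changes of 0.38 and 0.40 without WT1. For Ccnb2 WT1 was the highest library, at 98.4 CPM, and the value with all 6 was 0.14 (SE 0.21). Cdk1 itself (0.36, and 0.21 with all 6), the Polo-like kinase gene Plk1 (0.45) and the phosphatase gene Cdc25b (0.21, and 0.51 with all 6) did not pass the test.

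All 12 mitotic kinesins, motors that slide, cross-link or shorten microtubules, had positive fold changes in both fits, and 3 rose without WT1 (Kif23, Kif11 and Kif4). Kif23, a subunit of the centralspindlin complex at the spindle midzone, was at 41.0, 51.3 and 51.7 CPM in WT and 70.2, 79.5 and 81.1 CPM in KO. Every KO library exceeded every WT library, and the log2 fold change was 0.58 (SE 0.09; adjusted p 0.00901, edgeR, BH) without WT1 and 0.68 (SE 0.14) with it. Kif18b, which promotes shortening of astral microtubules, was at 64.5, 79.7 and 76.7 CPM in WT and 92.8, 125 and 118 CPM in KO. It also showed no overlap, but its adjusted p without WT1 was 0.0709 (edgeR, BH). Kif20b, a motor of late cytokinesis, was at 14.3, 30.8 and 34.1 CPM in WT and 41.2, 47.2 and 46.5 CPM in KO, with WT1 at less than the other WT libraries. Its log2 fold change was 0.47 without WT1 (adjusted p 0.0571, edgeR, BH) and 0.76 with it. Kif22, which binds chromosome arms and had the highest level per length among the kinesins, went the other way in WT1. It was at 182, 115 and 117 CPM in WT and 136, 138 and 143 CPM in KO, so that its log2 fold change was 0.01 with all libraries and 0.26 without WT1 (adjusted p 0.0914, edgeR, BH). With all libraries the sign of Kif22 was not stable, at -0.10 without WT2, -0.10 without WT3, -0.02 without KO3 and -0.04 with the trend on transcript length removed. Kif11, the motor that pushes the spindle poles apart, and Kif4, which works on chromosome arms and the midzone, had log2 fold changes of 0.40 and 0.38 without WT1. Kif2c, Kif14, Kif15, Kif18a, Kif20a and Kifc1 did not pass, with log2 fold changes of 0.18 to 0.58 without WT1. With all 6 libraries Kif15 was at 0.69 against 0.24 without WT1, and Kifc1 at 0.02 against 0.24, with a sign that turned when WT2 (-0.09), WT3 (-0.06) or KO2 (-0.11) was left out. The largest of these values, 0.58, belonged to Kif14, the rarest of the 50, which was at 8.10, 3.80 and 3.34 CPM in WT and 6.96, 3.38 and 5.59 CPM in KO, with overlapping groups and an SE of 0.31. Its value with all 6 libraries was 0.07, and at -0.42 with the trend on transcript length removed, -0.09 without WT2, -0.16 without WT3 and -0.17 without KO1.

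Spindle and microtubule-associated proteins held the largest difference of the 50. Of 9 genes 3 rose without WT1 (Aspm, Hmmr and Prc1), and all 9 fold changes were positive in both fits. Aspm, which focuses microtubule minus ends at the spindle poles, was at 10.4, 28.2 and 26.6 CPM in WT and 42.2, 51.4 and 50.7 CPM in KO. The lowest KO library was well above the highest WT library, and the log2 fold change was 0.82 (SE 0.12; adjusted p 0.00479, edgeR, BH) without WT1 and 1.14 (SE 0.36) with it. Aspm was the only one of the 20 that was called in each of the 5 fits that left out a further library. It lies on chromosome 1 (139454772 to 139494091, plus strand), 32.2 Mb from Cd48. Hmmr, a hyaluronan-binding spindle protein, was at 52.7, 49.3 and 54.9 CPM in WT and 74.4, 83.3 and 86.1 CPM in KO. Here WT1 matched the other WT libraries, and the log2 fold change was 0.64 in both fits (adjusted p 0.00618 without WT1, edgeR, BH, and 0.000825 in DESeq2 with all 6 libraries). Prc1, which bundles antiparallel microtubules of the midzone, was at 127, 108 and 128 CPM in WT and 161, 171 and 182 CPM in KO. Its log2 fold change was 0.54 (SE 0.09) without WT1, but Prc1 overlaps Rccd1 on the opposite strand over 21810 bases and reads of this pair cannot be told apart with certainty. The called genes Ccna2, Kif4 and Cdc20 also overlap a listed gene on the opposite strand. Tacc3, which stabilises kinetochore fibres with clathrin, had the highest level per length of this role. At 202, 128 and 135 CPM in WT and 149, 181 and 162 CPM in KO, it did not pass (log2 fold change 0.32 without WT1 and 0.08 with it, turning to -0.04 without WT2 and -0.01 without WT3). Nusap1, Ckap2l, Ckap5, Tpx2 and Ckap2 ranged from 0.12 (Ckap2) to 0.37 (Nusap1 and Ckap2l) without WT1 and did not pass. Over all 6 libraries Ckap2 was at 0.32, Ckap5 at 0.60 against 0.34, Tpx2 at 0.13 against 0.23 and Nusap1 at 0.11, or -0.02 without WT2.

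**Figure D3:**
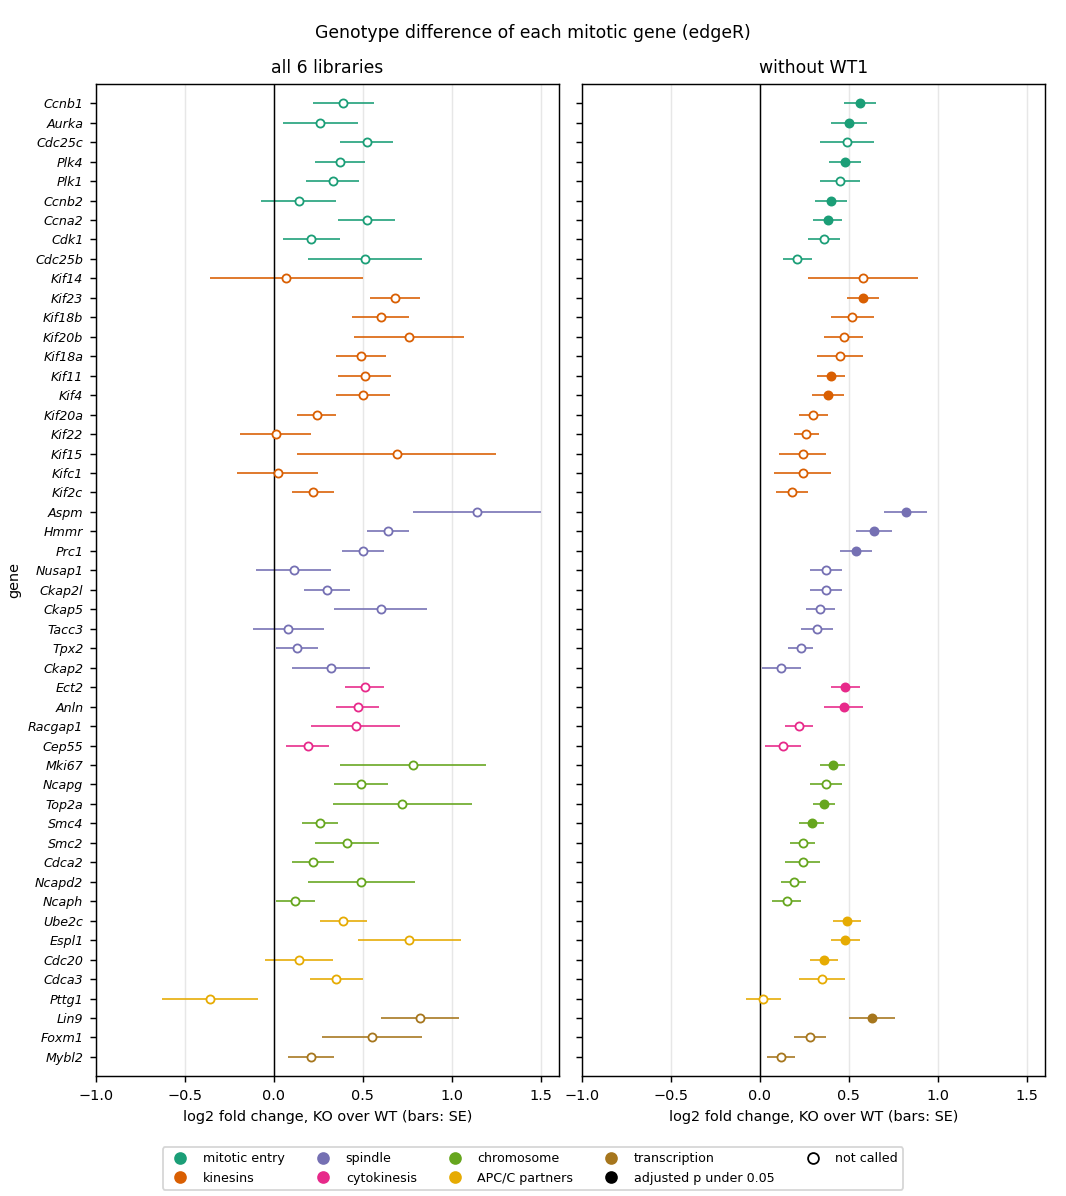
Log2 fold change of KO over WT (x axis) for each gene (y axis) with all 6 libraries (left) and without WT1 (right); bars are standard errors of the edgeR fit, filled points passed at an adjusted p under 0.05 over all genes. No point is filled on the left and 20 are on the right, where the errors are smaller (median SE 0.09 against 0.16) and the values are on the positive side throughout.

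Of the 4 cytokinesis genes 2 rose without WT1. Ect2, the exchange factor that activates RhoA at the cell equator, was at 62.0, 64.5 and 69.6 CPM in WT and 91.4, 92.8 and 95.5 CPM in KO. The libraries of each genotype lay close together and did not overlap with those of the other. The log2 fold change was 0.48 (SE 0.08; adjusted p 0.0109, edgeR, BH) without WT1 and 0.51 (SE 0.11) with it. Anln, the scaffold of the contractile ring, was at 33.6, 33.5 and 34.1 CPM in WT and 43.1, 50.4 and 46.7 CPM in KO. Its log2 fold change was 0.47 in both fits, with an adjusted p of 0.0466 (edgeR, BH) without WT1. Racgap1, the centralspindlin partner of Kif23, was at 70.4, 127 and 143 CPM in WT and 150.3, 156 and 164 CPM in KO. It showed no overlap, yet its log2 fold change of 0.22 (SE 0.08) without WT1, and of 0.46 with it, did not pass, and neither did that of the abscission protein gene Cep55 (0.13).

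Condensins and other mitotic chromosome proteins had the lowest median of the 7 roles without WT1 (0.27 over 8 genes, next to 0.28 for the transcriptional regulators), and 3 of them rose. With all 6 libraries their median was 0.45, above those of mitotic entry (0.37), APC/C partners (0.35) and spindle proteins (0.32). Top2a, topoisomerase II alpha, was the most abundant of the 50 in CPM, at 113, 318 and 356 CPM in WT and 426, 433 and 439 CPM in KO. The KO libraries lay within a narrow band above WT3, while WT1 was far below all others. Its log2 fold change was 0.36 (SE 0.06; adjusted p 0.0111, edgeR, BH) without WT1 and 0.72 (SE 0.39) with it. Mki67, the chromosome surfactant known as the proliferation marker Ki-67, was at 64.6, 190.1 and 217 CPM in WT and 282, 263 and 266 CPM in KO. WT1 was again the lowest, and the log2 fold change of 0.41 (SE 0.07; adjusted p 0.0109, edgeR, BH) without WT1 became 0.78 (SE 0.41) with it. The condensin gene Ncapg was at 50.7, 63.5 and 70.5 CPM in WT and 79.5, 89.8 and 90.8 CPM in KO, without overlap, and had an adjusted p of 0.0704 (edgeR, BH) without WT1. Of the other condensin subunits Smc4 rose (0.29), and Smc2 (0.24, and 0.41 with all 6), Ncapd2 (0.19, and 0.49 with all 6) and Ncaph (0.15) did not pass, nor did Cdca2 (0.24), which recruits phosphatase to anaphase chromatin.

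Partners of the APC/C and separase made up 5 genes, of which 3 rose without WT1. Ube2c, the ubiquitin-conjugating enzyme of the APC/C, was at 145, 126 and 113 CPM in WT and 152, 179 and 170.2 CPM in KO. All KO libraries exceeded all WT libraries, with a log2 fold change of 0.49 (SE 0.08; adjusted p 0.0111, edgeR, BH) without WT1. Espl1, separase, which cuts cohesin at anaphase, was at 28.1, 61.1 and 60.0 CPM in WT and 82.8, 83.0 and 87.7 CPM in KO. The KO values were nearly equal and the log2 fold change was 0.48 (SE 0.08; adjusted p 0.0109, edgeR, BH) without WT1 and 0.76 (SE 0.29) with it. Cdc20, the mitotic activator of the APC/C, was at 186, 126 and 124 CPM in WT and 144, 173 and 163 CPM in KO. WT1 was the highest library, and Cdc20 passed narrowly without it (0.36, SE 0.08, adjusted p 0.0493, edgeR, BH), while the value with it was 0.14 (SE 0.19, adjusted p 0.779). Cdca3, a mitotic entry factor, had 0.35 and did not pass. Pttg1, securin, which holds separase inactive, was named after its values were seen, because it stood apart from the other 49. It was at 79.4, 39.7 and 43.2 CPM in WT and 41.3, 44.5 and 40.3 CPM in KO, so that KO spanned the same range as WT2 and WT3. Its log2 fold change was 0.02 (SE 0.10) without WT1 and -0.36 (SE 0.27) with it, the only negative value of the 50. Without WT1 it turned to -0.04 when WT2 was also left out and to -0.03 when KO2 was. Pttg1 is 1 of 7 genes with neither promoter match, whose median without WT1 was 0.32 and of which Plk4 was called. The 29 genes with both kinds of match had a median of 0.38, with 14 called, and this difference was not tested. The RefSeq start of Pttg1 lies inside the gene as annotated by GENCODE, as is also the case for Cdk1, Ccnb1, Kif14 and Kif2c, among others.

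Of the 3 transcriptional regulators 1 rose without WT1. Lin9, a core subunit of MuvB, was at 12.2, 18.5 and 20.4 CPM in WT and 31.5, 31.4 and 27.5 CPM in KO. The groups did not overlap, and the log2 fold change was 0.63 (SE 0.13; adjusted p 0.0271, edgeR, BH) without WT1 and 0.82 (SE 0.22) with it. Lin9 lies on chromosome 1 (180641150 to 180690694, plus strand), 8.9 Mb from Cd48. How far the donor-strain segment around the targeted allele reaches was not analysed here. An effect of sequence in that segment and one of Cd48 loss therefore cannot be told apart for Lin9. The same holds for Aspm (32.2 Mb) and Kif14 (35.2 Mb), which lie farther from Cd48 on chromosome 1. Foxm1, the forkhead activator of G2 and M phase genes, was at 30.9, 60.3 and 68.0 CPM in WT and 79.5, 76.2 and 77.8 CPM in KO, and its log2 fold change of 0.28 without WT1 did not pass (adjusted p 0.155, edgeR, BH), nor did that of 0.55 with it. Mybl2, B-Myb, was at 79.0, 97.5 and 99.6 CPM in WT and 103, 106 and 111 CPM in KO, a small step of 0.12 without WT1 (0.21 with it) that showed no overlap and did not pass (adjusted p 0.565, edgeR, BH).

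Differences among the 50 genes in WT1 went with transcript length. The log2 ratio of WT1 to the mean of WT2 and WT3 ran from -2.43 (Kif15) to 1.18 (Kif14), and across the 50 genes it correlated with log2 transcript length at Pearson's r of -0.53 and Spearman's rho of -0.56. The points share the same 3 libraries and are not independent, and rho was -0.34 across 12699 tested genes. Of the 9 genes under 2500 bases WT1 was above both other WT libraries for 8, with a median log2 ratio of 0.57. Of the 20 genes of at least 4000 bases it was below both for 14, with a median of -0.78. Over all tested genes these medians were 0.26 and -0.43. The genotype difference without WT1 had medians of 0.40, 0.37 and 0.37 for genes under 2500 bases, those between and those of at least 4000 bases. Across the 50 genes this difference correlated with transcript length at Pearson's r of 0.27 (log2 length) and Spearman's rho of 0.12. With the trend of every library on transcript length removed, all 6 libraries gave 47 positive fold changes of 50 and a median of 0.38, and the single genes of WT1 still ranged from -2.08 to 1.98 around WT2 and WT3.

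**Figure D4:**
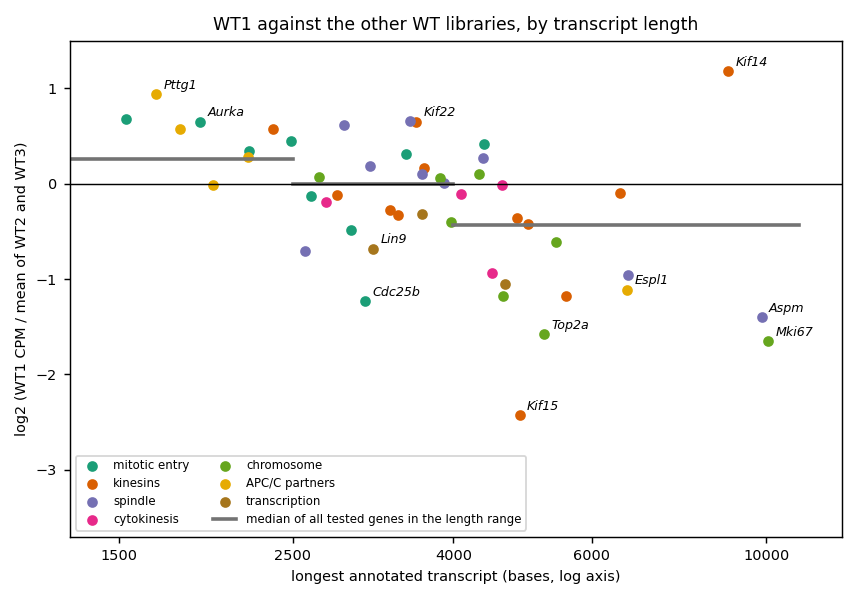
Log2 ratio of WT1 to the mean of WT2 and WT3 in CPM (y axis) against the longest annotated transcript (x axis, bases, log scale) for the 50 genes, coloured by role; grey lines are medians of all tested genes in 3 length ranges. Short transcripts such as Pttg1 lie above 0 and long ones such as Mki67, Aspm and Top2a below, with Kif14 and Kif15 far from the rest.

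Other cell cycle genes, taken from 10 fixed lists, had smaller median differences without WT1 (-0.10 to 0.20) than each mitotic role (0.27 to 0.45). This was not so with all 6 libraries. The list of other spindle, centrosome and cytokinesis genes then had a median of 0.39, above mitotic entry (0.37), APC/C partners (0.35) and spindle proteins (0.32), while the other lists had -0.03 to 0.30. The difference between lists was not tested. Without WT1, 0 of 21 tested interphase and transport kinesins passed and their median log2 fold change was -0.10, against 0.39 for the mitotic kinesins. With all 6 libraries these medians were 0.04, with 13 of the 21 positive, and 0.50. Kif5b, the conventional kinesin heavy chain, stood at 0.19 and Kif3b at -0.34 (0.12 with all 6), neither past the test. Among 13 cohesin genes 1 rose, Esco2, the acetyltransferase that locks cohesin in S phase, from 20.2, 25.8 and 27.5 CPM in WT to 40.3, 40.3 and 43.7 CPM in KO (0.64, SE 0.11, adjusted p 0.0109, edgeR, BH). The cohesin protector gene Cdca5 (0.41) did not pass. Of 6 genes of condensin II and other SMC complexes 1 rose, Ncapg2 (0.43, and 0.73 with all 6), while Ncapd3 (0.18, and 0.44 with all 6) did not pass. A list of 17 genes held core APC/C subunits, the activator Cdh1, the ubiquitin-conjugating enzyme gene Ube2s and the inhibitor gene Fbxo5. None of them passed without WT1 (median 0.06), with the subunit gene Cdc27 at 0.26 and Ube2s at 0.20 (-0.28 with all 6). With all 6 libraries 0 genes of these lists passed the edgeR test. Other tests on all 6 did call single genes of the 10 lists. Examples are Esco2 (adjusted p 0.00547 in DESeq2 and 0.0246 in limma-voom with sample quality weights) and Rbl1 (0.0427 in limma-voom with these weights).

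Upstream of mitosis, 1 of 17 genes for MuvB, pocket proteins and E2F factors rose, Rbl1, which encodes the pocket protein p107 (0.40), and the repressor gene E2f7 had 0.45 (0.70 with all 6) without passing. Of 9 tested G1 cyclin and kinase genes 1 rose, Ccne2 (0.45), whose value with all 6 libraries was -0.04, and Skp2 had 0.51 without passing. Among 10 CDK inhibitor and antiproliferative genes 1 rose and 1 fell. Ccng1, cyclin G1, a p53 target, went from 349, 363 and 389 CPM in WT to 491, 523 and 532 CPM in KO (0.46, SE 0.06, adjusted p 0.00303, edgeR, BH). Btg1, an antiproliferative gene of resting lymphocytes, went from 626, 435 and 427 CPM in WT to 358, 329 and 304 CPM in KO (-0.38, SE 0.07, adjusted p 0.0109, edgeR, BH, and -0.59 with all 6). Neither gene's groups overlapped. Of 16 other regulators of mitotic entry and exit 2 rose, Bora (0.54), the activator of Aurora A, and Gtse1 (0.38). Of 20 other spindle, centrosome and cytokinesis genes 2 rose, Cenpf (0.80) and the kinase gene Pbk (0.51). Among 9 tubulin genes 1 rose, Tubb6 (0.33, and 0.18 with all 6), and Tuba1c had 0.17 (0.55 with all 6).

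**Figure D5:**
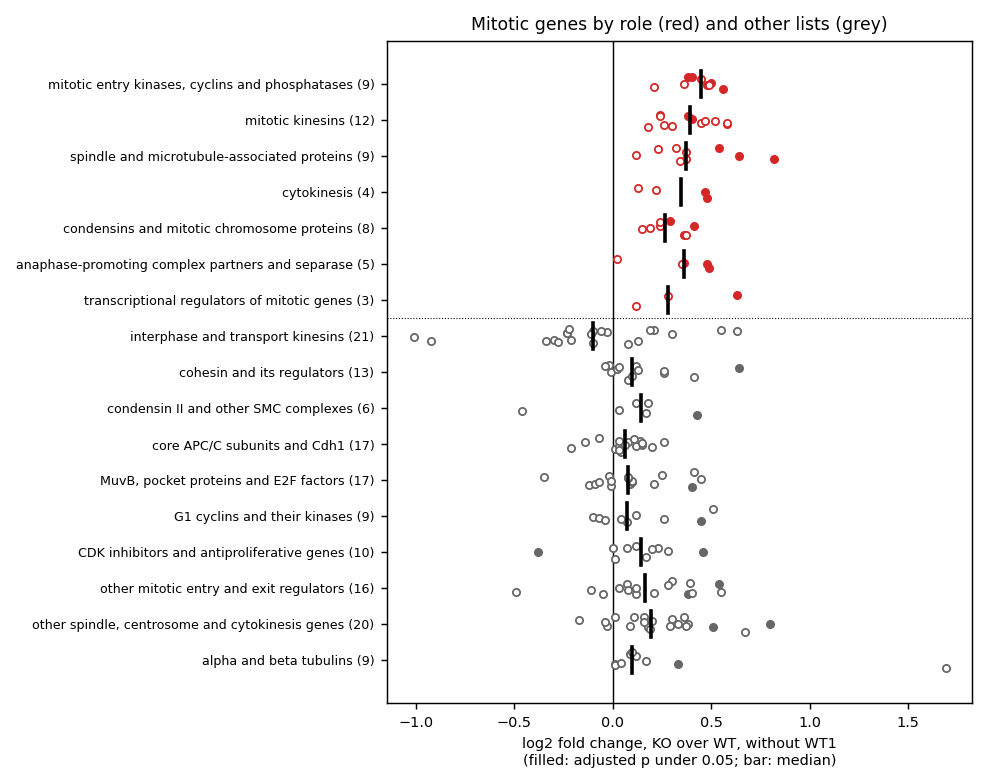
Log2 fold change without WT1 (x axis) of every tested gene of the 7 mitotic roles (red) and of 10 other lists (grey), with the number of genes in brackets; filled points passed at an adjusted p under 0.05 over all genes and black bars are medians. Red points all lie at or above 0.02, whereas each grey list but the tubulins holds values below 0.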

How the data were processed

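The values the authors deposited were read as estimated counts, since library totals differ and 60.2% of non-zero values are whole within 0.001. STAR 2.7.8, Partek 10.0, DESeq2 and mm10 appear in the submitters' processing notes with no role given. The labels do not state how genes were counted or whether strand was used, and 13 of the 50 genes overlap a listed gene on the opposite strand (4 of the 20 calls). Counts were rounded and tested with edgeR 4.0.16 in R 4.3.3 (TMM, filterByExpr with a minimum count of 10, robust quasi-likelihood fit, genotype as the only term, BH adjustment over all tested genes). SE is the log2 fold change over the root of F. DESeq2 1.42.0 and limma 3.58.1 gave alternatives. The tests were checked on simulated counts, in which all libraries shared the same mean and spread per gene apart from the differences put in. The departure of WT1 was not imitated, so the check does not show how the fit of all 6 libraries handles such a library. The fit of all 6 libraries missed nearly all of the smallest differences put in. The fit without WT1 found most of these, with more false calls. Even the smallest exceeded the median difference of the 50 genes in either fit, so recovery at that median was not tested. No replicate pair of a genotype agreed within sampling noise. Chi-square per gene was 98.38 and 135.46 for the pairs of WT1 with WT2 and WT3, and 5.22 to 9.29 for the other pairs. Positions and longest transcripts came from GENCODE on GRCm38 (97.6% of symbols matched). Genes given library by library were, per role, the 3 with the largest change without WT1 at a mean of at least 10 CPM and the one with the highest level per length. The 2 lowest p-values without WT1, at that mean, were named per other list, and remaining genes are named to account for the list. Plk4 and Kif14 (library values) were added after their values were seen. The genes, lists and tests were chosen with earlier results of these data known. A fit with 1 WT library takes its spread from the KO libraries.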

Additional observations from a re-analysis of the deposited data

How the results depend on the processing

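With all 6 libraries, 4 genes were called. DESeq2 called 108 genes and 5 of the 50 mitotic genes, and limma-voom with sample quality weights, which gave WT1 a weight of 0.0919, called 100 and 8. With each library left out in turn, called genes ranged from 0 (without KO1, where 662 genes had an unadjusted p under 0.05, and without KO3, where 335 had) to 248 (without WT1), mitotic genes called higher from 0 to 20, and their median log2 fold change from 0.37 to 0.49. None of the 50 was called lower in any of these fits. Without WT1, leaving out a further library gave 1 to 30 calls and medians of 0.30 to 0.41, while size factors of DESeq2, no filter, a mean of at least 10 CPM and the length trend removed gave 19, 15, 20 and 16 calls, all among the 20. Signs reversed for 6 of the 50 genes with all 6 libraries, and the cause was not tested. With the length trend removed Kif14 was at -0.42 and Kif22 at -0.04, and Pttg1 was at 0.01 with the weights. With each library left out, Kif14 ranged from -0.17 to 0.58, Kif22 from -0.10 to 0.26, Kifc1 from -0.11 to 0.24, Nusap1 from -0.02 to 0.37, Tacc3 from -0.04 to 0.32 and Pttg1 from -0.54 to 0.02. Without WT1 and a further library, Pttg1 ranged from -0.04 to 0.08 and Ckap2 from -0.01 to 0.27. Same-numbered samples did not deviate together (r of -0.046, -0.036 and -0.009). This cannot exclude a pairing, because the deviations were taken from group means that include WT1. The labels do not state whether the numbers pair the samples. With the replicate number as a block, edgeR called 0 genes with 6 libraries (776 at an unadjusted p under 0.05; median of the 50 genes 0.42) and 28 of the 50 without WT1. Kif14 had the lowest count of the 50 in a library, 55, and so the largest relative counting error.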
